A study of Mus musculus with 26 samples.

Results

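The 10 genes described here encode antimicrobial proteins, mucus-associated proteins and a transport receptor of the gut lining: Lyz1, Itln1, Ang4, Reg3b, Reg3g, Lypd8, Pigr, Tff3, Zg16 and Lyz2. They were chosen by gene symbol, and 10 of 10 were found among the 25814 genes listed for every library. Their transcripts were read in messenger RNA from T cells sorted out of the Peyer's patches of C57Bl/6 mice. Peyer's patches are epithelium-covered lymphoid tissue of the small intestine. The diet comparison set CD4+ T cells of elemental-diet mice (n = 6 libraries) against those of conventional-diet mice (n = 6). An elemental diet supplies free amino acids in place of intact food protein. A second comparison set CD44+ T cells (n = 7) against CD44- T cells (n = 7), both from mice on the conventional diet. CD44, a receptor for hyaluronan, is abundant on T cells that have met antigen. The labels give no age or sex, and they do not say whether libraries of a group came from separate animals or whether CD4 was part of the CD44 gates. For that reason a p-value here reflects the spread among libraries, which may be partly technical.

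The gut lining keeps bacteria at a distance with secreted lectins, lysozymes, defensins and ribonucleases, with mucus, and with immunoglobulin A that is carried into the lumen. Paneth cells at the crypt base store defensins, lysozyme and intelectin in granules. Goblet cells release mucins together with trefoil peptides and lectin-like proteins, and absorptive enterocytes make the Reg3 lectins, Lypd8 and the immunoglobulin receptor Pigr. T cells are not known as a main source of any of them. In bulk libraries, fewer cells of a type and less RNA per cell cannot be told apart.

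Levels are given in CPM: total exon reads relative to the scaled library size. Libraries of CD4+ cells held 16401589 to 25415205 exon reads in total, those of the CD44 sorts 7180390 to 13378353. For CD4+ cells the input was 22 ng of RNA with a standard kit, and for the CD44 sorts 1 ng with a low-input kit. The sorted population and the kit cannot be told apart, so CD4+ libraries were not set against CD44 libraries. The T cell marker list, 8 genes such as Cd3e and Cd4, summed to 3555 to 3973 CPM on the elemental diet and to 3673 to 4238 CPM on the conventional diet. Cd44 itself averaged 157 ± 94.5 CPM in CD44+ libraries and 81.2 ± 30.2 CPM in CD44- libraries (SD, n = 7 each), a difference that edgeR did not call (adjusted p = 0.303). Cd4 averaged 38.8 ± 22.2 CPM in CD44+ libraries and 166 ± 157 CPM in CD44- libraries, also not called (edgeR adjusted p = 0.0950). By diet, Cd44 was called lower, at 91.2 ± 17.2 CPM in elemental and 138 ± 14.7 CPM in conventional libraries (edgeR adjusted p = 0.00339).

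Reg3b (ENSMUSG00000071356, chr6:78370657-78373466, plus strand) and Reg3g (ENSMUSG00000030017, chr6:78466269-78468872, minus strand) are neighbouring protein-coding genes in GRCm38. Lyz1 (ENSMUSG00000069515, chr10:117287797-117292868) and Lyz2 (ENSMUSG00000069516, chr10:117277331-117282321) are neighbours on the minus strand. The coding sequences of Lyz1 and Lyz2 were identical at 425 of 447 aligned bases (95.1%), those of Reg3b and Reg3g at 410 of 535 (76.6%). The 150 bases before each start are shown so that the members of each pair can be compared. They come from RefSeq on GRCm38.p6, read on the gene's strand, and count from RefSeq's start, which for Reg3b and Lyz2 lies inside the gene span that the tables give. Capitals in the Reg3 windows mark the TATA box letters TATAAA and the motif TTCNNNGAA, the palindrome known from STAT3 binding. Capitals in the lysozyme windows mark the 50 bases just before the start that are the same in both genes.
Reg3b, chr6:78370735-78370884, plus strand: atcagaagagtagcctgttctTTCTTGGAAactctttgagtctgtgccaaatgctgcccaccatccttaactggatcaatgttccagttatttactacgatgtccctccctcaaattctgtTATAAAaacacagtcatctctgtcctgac
Reg3g, chr6:78468875-78469024, minus strand: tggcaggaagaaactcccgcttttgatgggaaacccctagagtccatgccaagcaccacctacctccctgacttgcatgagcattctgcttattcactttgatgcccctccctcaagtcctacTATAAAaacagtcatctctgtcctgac
Lyz1, chr10:117292869-117293018, minus strand: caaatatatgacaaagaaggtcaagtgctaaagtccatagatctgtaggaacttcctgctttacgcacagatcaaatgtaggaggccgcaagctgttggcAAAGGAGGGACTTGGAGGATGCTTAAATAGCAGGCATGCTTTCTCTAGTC
Lyz2, chr10:117282273-117282422, minus strand: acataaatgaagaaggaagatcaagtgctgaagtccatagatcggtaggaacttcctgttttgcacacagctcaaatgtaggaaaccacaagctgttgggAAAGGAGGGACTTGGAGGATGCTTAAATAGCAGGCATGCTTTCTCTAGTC

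Over these 150 bases, 134 of 151 aligned positions were identical between the lysozymes (88.7%) and 107 of 154 between the Reg3 genes (69.5%). A window of 250 bases before the start was given for 8 of the 10 genes, all but Tff3 and Zg16. Searched on both strands, TATAAA was found there in Reg3b and Reg3g, and TTCNNNGAA in Reg3b and Ang4. Over all 32851 such windows, 12.4% held TATAAA and 7.02% held TTCNNNGAA. A match is a description of the letters, not a binding site.

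The lysozymes also share a run of 118 coding bases, printed here because reads that fall in it match both genes equally well. The run crosses an exon boundary, lying within chr10:117288637-117291054 for Lyz1 and chr10:117278175-117280666 for Lyz2.
Lyz1 and Lyz2 shared coding stretch: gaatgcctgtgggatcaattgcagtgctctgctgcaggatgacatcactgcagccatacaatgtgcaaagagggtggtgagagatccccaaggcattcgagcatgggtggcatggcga
Reads with a single matching place made up 84.7% to 90.1% of Lyz1 exon reads in elemental libraries and 80.6% to 87.5% in conventional ones. For Lyz2 these shares were 87.5% to 91.2% on the elemental diet and 83.8% to 89.4% on the conventional diet. All exon reads of Reg3b and Reg3g had a single matching place in every CD4+ library. How the remaining lysozyme reads were assigned is not given in the sources used here, and the levels of the Lyz pair are uncertain to that extent.

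On the elemental diet, 4 of the 10 genes rose in the CD4+ libraries: Lyz1, Itln1 and Ang4, which Paneth cells release, by log2 fold changes of 3.40 to 4.48, and Lyz2, the lysozyme of macrophages, by 0.95. The fitted change of every one of the 10 was above 0, with a median of 1.20 against -0.01 over all genes tested. By the same edgeR quasi-likelihood test, 9.68% of the 11938 genes tested were higher and 7.75% lower on the elemental diet at an adjusted p under 0.05. The other 6 genes, Reg3b, Reg3g, Lypd8, Pigr, Tff3 and Zg16, did not pass the test, with fitted changes between 0.31 and 1.91. Without conventional replicate 6, the highest conventional library for 7 of the 10 genes, Lypd8 and Pigr passed as well and 6 of 10 were called. Leaving out any other library kept the count at 4. The number of all called genes, 2081, also moved with single libraries: it was 3865 without conventional replicate 6, 1299 without conventional replicate 4 and 1316 without elemental replicate 4.

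**Figure D1:**
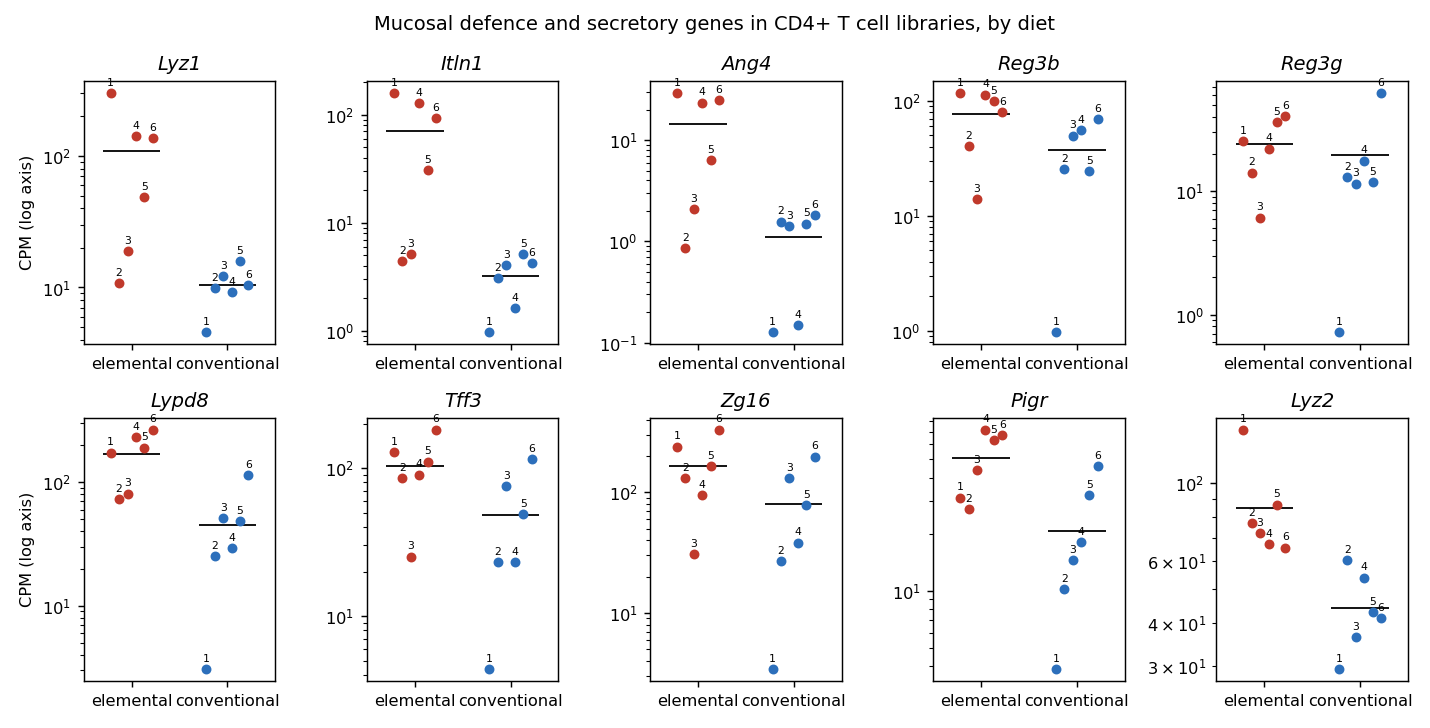
CPM of each gene on a log axis in the 6 elemental (left, red) and 6 conventional (right, blue) CD4+ libraries, with replicate numbers beside the points and the mean as a line. The Lyz2 groups do not overlap, a trait not counted over all genes tested, and conventional replicate 1 is the lowest point in every panel.

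**Figure D2:**
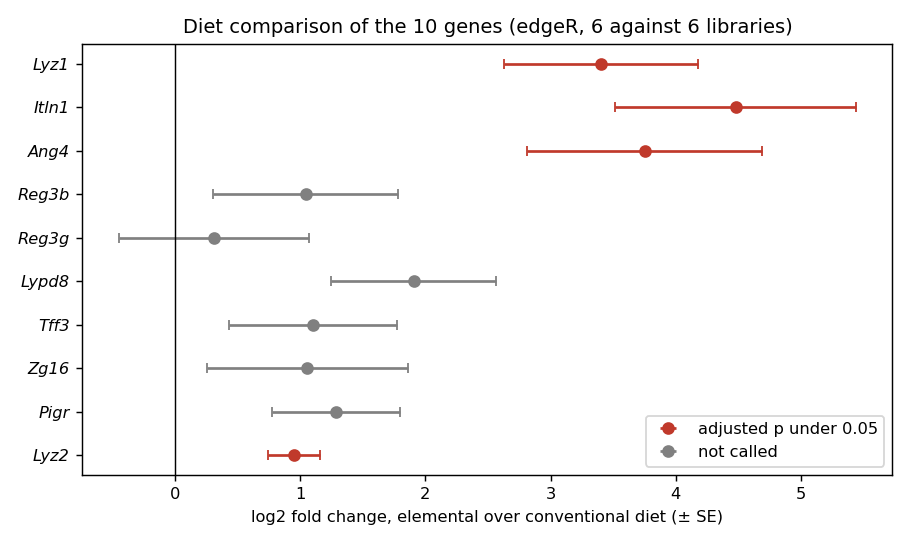
Log2 fold change of each gene, elemental over conventional diet, with its standard error from the edgeR fit of 6 against 6 libraries. Red points passed an adjusted p under 0.05, and Itln1, Ang4 and Lyz1 lie farthest to the right, at 4.48, 3.75 and 3.40.

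Itln1 (ENSMUSG00000038209, chr1:171518122-171535294, minus strand) encodes intelectin, a lectin that binds sugars of microbial surfaces. Its level in elemental libraries had a minimum of 4.39, a median of 62.2 and a maximum of 159 CPM, against 0.972, 3.57 and 5.13 CPM in conventional libraries. In 5 of 6 elemental libraries it stood above the highest conventional library, and the groups overlapped through elemental replicate 2 alone. Itln1 averaged 70.0 ± 66.0 CPM on the elemental diet and 3.19 ± 1.62 CPM on the conventional diet (SD, n = 6 each), a log2 fold change of 4.48 ± 0.96 (SE, edgeR adjusted p = 0.0112).

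Lyz1, the lysozyme of Paneth cell granules, which cuts the peptidoglycan wall of bacteria, was high in the same 4 elemental libraries. Its minimum, median and maximum were 10.8, 92.4 and 301 CPM on the elemental diet, against 4.56, 10.2 and 15.9 CPM on the conventional diet. Elemental replicates 1, 4, 5 and 6 lay at 301, 141, 48.6 and 136 CPM, while elemental replicates 2 and 3, at 10.8 and 18.8 CPM, lay within or just above the conventional range. The mean was 109 ± 110 CPM on the elemental diet and 10.4 ± 3.73 CPM on the conventional diet. The log2 fold change was 3.40 ± 0.77 (edgeR adjusted p = 0.0146), and 2.78 without elemental replicate 1 (adjusted p = 0.0232).

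Ang4 (ENSMUSG00000060615, chr14:51763878-51773590, minus strand) is a ribonuclease of the angiogenin family with bactericidal activity, made by mouse Paneth cells. Its minimum, median and maximum were 0.857, 14.9 and 29.3 CPM on the elemental diet, against 0.127, 1.46 and 1.82 CPM on the conventional diet. Elemental replicate 2 was again inside the conventional range and elemental replicate 3, at 2.07 CPM, just above it. Means were 14.5 ± 12.8 CPM on the elemental diet and 1.10 ± 0.756 CPM on the conventional diet, a log2 fold change of 3.75 ± 0.94 (edgeR adjusted p = 0.0206).

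Other Paneth cell genes moved with these 3. Of 7 Paneth cell genes tested out of 15 listed, 6 rose, with a median log2 fold change of 4.11. Among them Defa23 rose by 4.55 ± 0.94, Defa21 by 4.53 ± 1.07 and Defa24 by 4.38 ± 0.91; these encode alpha-defensins, peptides that disrupt bacterial membranes. Defa24 averaged 129 ± 117 CPM in elemental libraries and 6.26 ± 2.45 CPM in conventional libraries (edgeR adjusted p = 0.00978). Alpha-defensin genes are near-identical copies, so single members of that family are uncertain. Clps, which encodes the lipase cofactor colipase, rose by 4.11 ± 0.94 at no more than 3.64 CPM on average. Mmp7, the protease that activates mouse alpha-defensins, had a fitted change of 3.33 ± 1.28 and did not pass (adjusted p = 0.0914). The low-count filter can keep a gene through its elemental libraries alone, which bears on the share called and on the median. Without that filter, 7 of 14 Paneth cell genes rose. The list summed to 13.8 to 662 CPM in elemental libraries and to 5.62 to 26.1 CPM in conventional libraries, with elemental replicates 2 and 3 the lowest of their group at 13.8 and 32.7 CPM. The calls of Lyz1, Itln1 and Ang4 held without any single library, but limma-voom with sample quality weights called neither these 3 (adjusted p between 0.0641 and 0.123) nor any of the 7 Paneth cell genes, of which DESeq2 called 6.

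**Figure D3:**
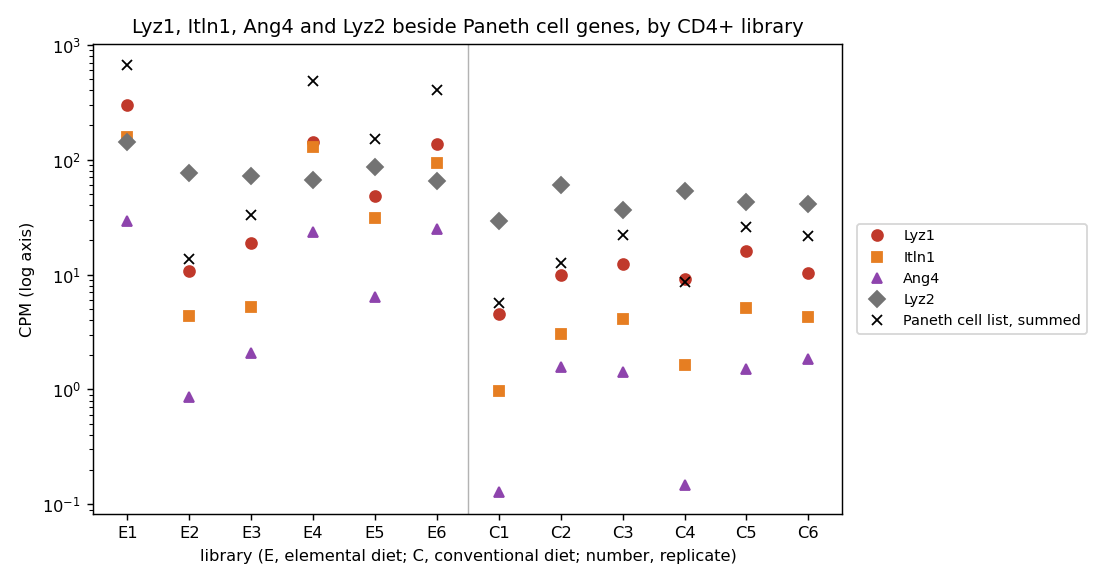
CPM on a log axis of Lyz1, Itln1, Ang4 and Lyz2 and the summed CPM of the Paneth cell list in each elemental (E) and conventional (C) CD4+ library. The 3 genes and the list are high in E1, E4, E5 and E6 and near the conventional level in E2 and E3, while Lyz2 stays between 65.5 and 142 CPM over all E libraries.

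A Paneth cell reference was the mean log2 level, in the same library, of the 7 genes of that list that passed the low-count filter. The filter can keep a gene through its elemental libraries alone, which bears on these ratios. Set against this list, the difference between diets was 0.26 for Itln1, -0.11 for Ang4 and -0.62 for Lyz1 (log2 ratio, elemental minus conventional). The groups overlapped for each. The log2 ratio of Itln1 to that list ran from 1.52 to 1.78 in elemental libraries and from 1.06 to 1.72 in conventional libraries. Set against 17 general epithelial markers, the differences were 1.64 for Itln1, 1.26 for Ang4 and 0.76 for Lyz1, again with overlapping groups. These ratios are descriptions with no test.

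Lyz2, the lysozyme of macrophages and other myeloid cells, had diet groups that did not overlap, a trait not counted over all genes tested. Its minimum, median and maximum were 65.5, 74.5 and 142 CPM in elemental libraries, against 29.5, 42.0 and 60.3 CPM in conventional libraries. It averaged 85.2 ± 29.1 CPM on the elemental diet and 44.0 ± 11.3 CPM on the conventional diet, a log2 fold change of 0.95 ± 0.21 (edgeR adjusted p = 0.00793). The call held without any single library but not in a test against a minimum fold of 1.5 (adjusted p = 0.187).

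Macrophage and dendritic cell markers moved in the same direction as Lyz2: 14 of 16 tested rose, with a median log2 fold change of 1.5. C1qa, a complement subunit made by tissue macrophages, rose by 2.17 ± 0.31, to 211 ± 102 CPM on the elemental diet, against 46.9 ± 12.5 CPM on the conventional diet. C1qc rose by 2.05, C1qb by 1.97 and Cd14, a coreceptor for lipopolysaccharide, by 1.89. The list summed to 1176 to 2134 CPM in elemental libraries and to 584 to 878 CPM in conventional libraries, without overlap. Relative to the mean of these markers, the log2 ratio of Lyz2 was lower by 0.34 on the elemental diet, with overlapping groups. Of the neutrophil markers, 1 of 9 passed the low-count filter and was not called, and the list summed to at most 1.61 CPM on the elemental diet and 0.845 CPM on the conventional diet. The part of either cell type in the Lyz2 result was not tested.

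Reg3b and Reg3g encode C-type lectins that enterocytes release and that kill or repel bacteria, Reg3g acting on Gram-positive ones. Reg3b had a minimum of 13.9, a median of 89.6 and a maximum of 117 CPM on the elemental diet, against 0.972, 37.7 and 69.3 CPM on the conventional diet. The groups overlapped widely, and the log2 fold change of 1.04 ± 0.74 did not pass (edgeR adjusted p = 0.337). Means were 77.3 ± 41.8 CPM on the elemental diet and 37.6 ± 25.05 CPM on the conventional diet.

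Reg3g had the smallest fitted change of the 10 by diet, 0.31 ± 0.76 on the log2 scale (edgeR adjusted p = 0.796), but it was 1.14 when conventional replicate 6 was left out and 0.06 when conventional replicate 1 was, and passed in neither case. Its minimum, median and maximum were 6.10, 23.8 and 40.8 CPM in elemental libraries, against 0.719, 12.4 and 62.4 CPM in conventional libraries. The highest value of all 12 was in a conventional library, replicate 6, and the next highest conventional value was 17.7 CPM. Relative to epithelial markers, the log2 ratio of Reg3g was lower by 0.99 on the elemental diet and that of Reg3b by 0.43, with overlap in both cases. Of the 3 related genes Reg3a, Reg1 and Reg4 in the list of other defence genes, each rose, by 2.83 ± 0.75, 2.61 ± 0.59 and 3.72 ± 1.00 (edgeR adjusted p of 0.0271, 0.0142 and 0.0275); they were singled out after their values were seen.

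Lypd8 (ENSMUSG00000013643, chr11:58379043-58390728, plus strand) encodes a lipid-anchored enterocyte protein that binds flagellated bacteria and keeps them off the epithelium of the mouse colon. Its minimum, median and maximum were 72.7, 182 and 265 CPM on the elemental diet, against 3.09, 38.8 and 114 CPM on the conventional diet. Elemental replicates 2 and 3, at 72.7 and 80.8 CPM, lay below conventional replicate 6 at 114 CPM, and all other elemental libraries lay above it. The means were 169 ± 78.3 CPM on the elemental diet and 45.2 ± 38.0 CPM on the conventional diet. The log2 fold change of 1.91 ± 0.66 did not pass in the edgeR test (adjusted p = 0.0689), but passed without conventional replicate 6 (2.43, adjusted p = 0.0208) and in DESeq2 (1.90, adjusted p = 0.0188).

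Pigr (ENSMUSG00000026417, chr1:130826684-130852249, plus strand) encodes the receptor that carries dimeric immunoglobulin A through the epithelium. Its minimum, median and maximum were 27.2, 53.4 and 71.8 CPM on the elemental diet, against 3.85, 16.3 and 46.2 CPM on the conventional diet. Means were 50.7 ± 19.3 CPM on the elemental diet and 20.9 ± 15.6 CPM on the conventional diet, with overlapping groups. The log2 fold change of 1.29 ± 0.51 did not pass in the edgeR test (adjusted p = 0.105) and passed without conventional replicate 6 (1.68, adjusted p = 0.0304). Jchain, the joining chain of the immunoglobulin A that Pigr binds, fell by 1.41 on the log2 scale, to 475 ± 207 CPM on the elemental diet, against 1263 ± 394 CPM on the conventional diet (edgeR adjusted p = 0.0127).

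Of 18 enterocyte markers 13 rose, with a median log2 fold change of 2.02, among them the glucose transporter Slc5a1 by 3.18 ± 0.64 and the disaccharidases Sis by 3.18 ± 0.52 and Lct by 2.73 ± 0.62. The enterocyte list summed to 1299 to 2283 CPM in elemental libraries and to 87.7 to 1109 CPM in conventional libraries, without overlap. Of 17 general epithelial markers 8 rose, with a median of 1.59, including Epcam, the adhesion molecule used to mark epithelium, by 1.79 ± 0.42. That list summed to 456 to 1221 CPM on the elemental diet and to 38.4 to 629 CPM on the conventional diet. In conventional libraries both lists were lowest in replicate 1 and highest in replicate 6. Relative to the enterocyte markers, the log2 ratio of Lypd8 differed by -0.05 and that of Pigr by -0.83 between the diets, with overlap in both cases. Without conventional replicate 6, 16 of 18 enterocyte and 15 of 17 epithelial markers rose. Without conventional replicate 4 these counts were 7 and 4, and with conventional replicate 2 left out they were 8 and 4. With elemental replicate 4, 5 or 6 or conventional replicate 5 left out, 4 or 5 epithelial markers rose.

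Tff3 (ENSMUSG00000024029, chr17:31125306-31129646, minus strand), a trefoil peptide of goblet cell mucus that aids epithelial repair, had a minimum of 25.2, a median of 101 and a maximum of 182 CPM on the elemental diet, against 4.40, 36.1 and 115 CPM on the conventional diet. Zg16 (ENSMUSG00000049350, chr7:127050156-127087328, minus strand), a lectin-like goblet cell protein that binds the wall of Gram-positive bacteria, had 30.9, 148 and 331 CPM on the elemental diet, against 3.42, 58.6 and 198 CPM on the conventional diet. Both genes were lowest in replicate 3 and highest in replicate 6 among elemental libraries, and lowest in replicate 1 and highest in replicate 6 among conventional libraries. Neither passed the edgeR test, with log2 fold changes of 1.10 ± 0.67 for Tff3 (adjusted p = 0.265) and 1.06 ± 0.80 for Zg16 (adjusted p = 0.372). Of 11 goblet cell and mucus genes tested, 1 rose, the kallikrein protease gene Klk1, by 1.08 ± 0.28 (adjusted p = 0.0167), and the list's median was 0.98. Without conventional replicate 6, 3 of these 11 rose, and limma-voom also called 3. Muc2, the main gel-forming mucin, averaged 5.87 ± 3.03 CPM on the elemental diet and 3.19 ± 2.19 CPM on the conventional diet (adjusted p = 0.307).

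Levels can be set against each other only per length, as CPM per kilobase of exon. On that scale the order in elemental libraries was Tff3 (210 ± 105), Zg16 (152 ± 98.4), Lypd8 (132 ± 60.9), Reg3b (89.8 ± 48.5), Lyz1 (86.7 ± 86.8), Lyz2 (64.7 ± 22.1), Itln1 (61.4 ± 57.8), Reg3g (31.3 ± 16.9), Ang4 (20.5 ± 18.0) and Pigr (12.6 ± 4.78). In conventional libraries it was Tff3 (98.2 ± 83.1), Zg16 (73.3 ± 67.8), Reg3b (43.7 ± 29.1), Lypd8 (35.2 ± 29.6), Lyz2 (33.4 ± 8.61), Reg3g (25.3 ± 28.2), Lyz1 (8.21 ± 2.95), Pigr (5.18 ± 3.88), Itln1 (2.79 ± 1.42) and Ang4 (1.55 ± 1.07). By group mean the goblet cell genes Tff3 and Zg16 led on both diets, though not in every library. Neighbours in either order lay within the larger of their SDs of each other. That SD is the spread between libraries. The genes were measured in the same libraries, and their order within a library was not tested.

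The genes fell into sets that followed each other over the 12 CD4+ libraries after the group means were removed (Pearson r of log2 CPM, a description over libraries that share kit and depth range). Tff3 and Zg16 had r = 0.99 (Spearman rho 0.97), and 0.97 without the 2 farthest libraries. Lyz1 and Itln1 had r = 0.97 (rho 0.99), also 0.97 without the 2 farthest. Itln1 and Ang4 had r = 0.95 (rho 0.95), and 0.92 without the 2 farthest. Reg3b and Reg3g had r = 0.93 (rho 0.68), which was 0.67 without the 2 farthest libraries, and Lypd8 and Pigr had 0.90 (rho 0.85) and likewise 0.67. Reg3b with Tff3 and with Zg16 had r = 0.87 each, which was 0.43 and 0.42 without the 2 farthest. Between sets, Lypd8 had r = 0.63 with Itln1 and 0.70 with Ang4, which was 0.85 and 0.80 without the 2 farthest. Lypd8 with Zg16, of its own set, went from 0.91 to 0.72. The sets were thus not separate without those libraries. Lyz2 followed none of the others closely, and Lyz1 and Lyz2, the pair with nearly the same coding sequence, had r = 0.38 (rho 0.10), which was 0.03 without the 2 farthest.

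**Figure D4:**
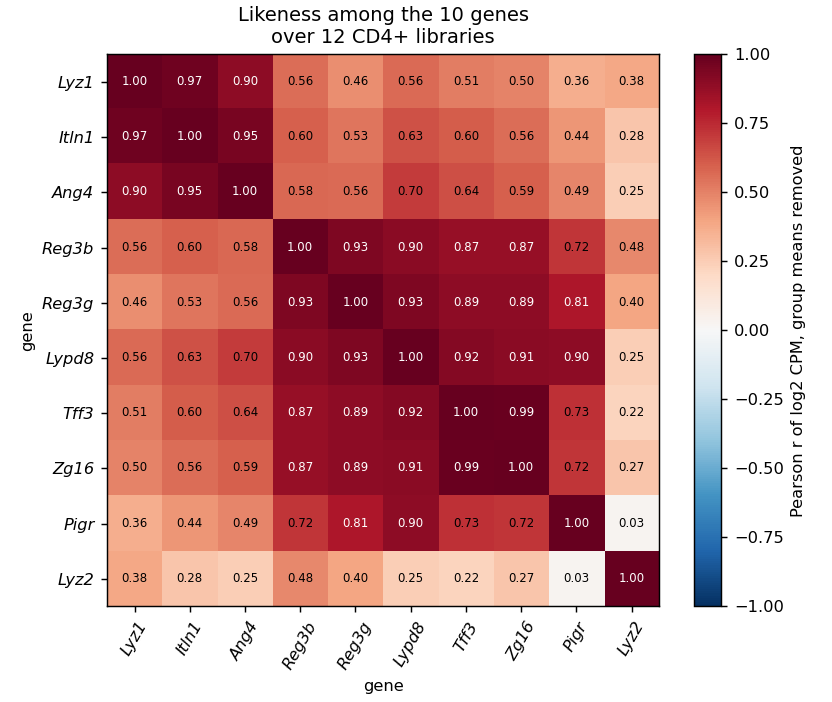
Pearson r between the log2 CPM of each pair of the 10 genes over 12 CD4+ libraries, with the diet means removed. Lyz1, Itln1 and Ang4 form a block (0.90 to 0.97), and Reg3b, Reg3g, Lypd8, Tff3 and Zg16 another (0.87 to 0.99). The blocks rest on all 12 libraries. Without the 2 farthest, Reg3b with Zg16 is 0.42, and Lypd8 with Itln1, of the other block, is 0.85. The Lyz2 row is palest (0.03 to 0.48).

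Among all genes tested, those nearest to Lyz1 were Defa24 (r = 0.97), Itln1 and Defa2 (0.97 each), and those nearest to Itln1 were Lyz1, Defa2 and Defa24. Ang4 was nearest to Defa2 (0.95), Itln1 (0.95) and Colq (0.94). Tff3 was nearest to Zg16 (0.99), Gm1123 (0.97) and Prss32 (0.95), and Zg16 to Tff3, Muc2 (0.97) and Fcgbp (0.96), a mucus protein. Lypd8 was nearest to Cldn3, Lgals4 and Cldn7 (0.99 each), the claudins being tight-junction proteins. Pigr was nearest to Gpa33, Glod5 and Ppp1r14d (0.96 each). Reg3b was nearest to Nqo1, 2610528J11Rik (0.95 each) and Slc51a (0.94), and Reg3g to Agr2, Nqo1 and 2610528J11Rik (0.96, 0.96 and 0.95). The nearest genes to Lyz2 were Fasl (0.89), Trim13 and Spata2l (0.86 each). All these nearest genes were picked as the highest of 11938 genes over 12 libraries. How high r reaches by such picking alone was not tested.

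Of the other antimicrobial and mucosal defence genes, 18 of 36 listed were tested and 12 rose, with a median log2 fold change of 3.27. These 12 were 8 alpha-defensin genes, the 3 Reg genes above and Nlrp6, an epithelial inflammasome sensor, which rose by 1.74 ± 0.41. Without conventional replicate 4, 6 rose, and 8 did with conventional replicate 5 left out. The count was 4 of 18 with limma-voom, and 7 of the 12 genes tested with unique exon reads. Without the low-count filter it was 12 of 31. The list summed to 302 to 1420 CPM in elemental libraries and to 154 to 257 CPM in conventional libraries. It shares genes with the Paneth cell list, among them Defa21, Defa23 and Defa24, so the counts of these lists are not separate results. Of 5 ribonuclease A family genes tested, Rnase6 alone rose, by 0.69 ± 0.18.

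Of 20 genes tested for signals upstream of epithelial defence, 4 rose and 2 fell. The falls depended on single libraries: the count was 0 when elemental replicate 1 or 4 or conventional replicate 2 or 4 was left out, and 1 when elemental replicate 2, 5 or 6 or conventional replicate 1 or 5 was, as it was with limma-voom. Il17a, a cytokine that induces epithelial antimicrobial proteins, fell by 2.71 on the log2 scale, to 1.62 ± 1.81 CPM on the elemental diet, against 10.5 ± 7.59 CPM on the conventional diet (edgeR adjusted p = 0.0285). Stat3, which carries the signal of Il22 in epithelium, fell by 0.56. Il18, an epithelial and myeloid cytokine, rose by 2.23 ± 0.47. Il22, the inducer of Reg3 lectins, averaged 0.668 ± 0.715 CPM on the elemental diet and 1.98 ± 2.18 CPM on the conventional diet and did not pass (adjusted p = 0.257).

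Among the remaining cell type lists, 3 of 9 M cell and follicle-associated epithelium markers tested rose and 1 fell, Marcksl1, by 0.80. Of 8 B cell markers 2 fell, Ms4a1 and Blk, of 7 plasma cell markers 3 fell, Derl3, Mzb1 and Jchain, and of 8 T cell markers 2 fell, Cd4 by 0.56 and Cd5 by 0.35. The M cell count of 3 was 1 without elemental replicate 4 and 5 without conventional replicate 6, and it was 2 when elemental replicate 1 or conventional replicate 2 or 5 was left out. The B cell count was 0 when conventional replicate 4 or 5 was left out and 1 when elemental replicate 1, 4 or 5 or conventional replicate 2 was, while DESeq2 and limma-voom each called 5. The T cell count was 0 when elemental replicate 4 or 6 or conventional replicate 1 or 5 was left out, 1 when elemental replicate 5 or conventional replicate 4 was, and 3 when elemental replicate 1 or conventional replicate 6 was. The plasma cell count was 3 without any single library. The part of epithelial, myeloid or other cells in the diet differences of the 10 genes was not tested.

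Between CD44+ and CD44- libraries, none of the 10 genes was called by edgeR, in a comparison with little power (few changes put into simulated counts of this design were called). The low-count filter kept 7 of them; Lypd8, Itln1 and Ang4 were not tested. Of all 8343 genes tested, 0.3% were higher and 0.467% lower in CD44+ libraries at an adjusted p under 0.05, 64 genes in all. The count ran between 36 and 87 when single libraries were left out, and was 36 without CD44+ replicate 5 and without CD44+ replicate 7. It was 37 without CD44+ replicate 6 and 41 without CD44- replicate 4. Of the 7 genes, 3 had fitted changes above 0 and 4 below, with a median of -0.21 against 0.03 over all genes tested. Pigr had an unadjusted edgeR p of 0.00596. DESeq2 called Pigr (adjusted p = 0.0188) and limma-voom did not.

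Lyz2 was the most even of the 10 in these libraries. Its minimum and maximum were 33.3 and 220 CPM in CD44+ libraries, against 30.7 and 167 CPM in CD44- libraries, and the means were 126 ± 57.7 CPM in CD44+ libraries and 92.5 ± 50.7 CPM in CD44- libraries (log2 fold change 0.44 ± 0.46, edgeR adjusted p = 0.756). Lyz1 averaged 25.6 ± 25.5 CPM in CD44+ libraries and 15.6 ± 15.9 CPM in CD44- libraries (0.71 ± 0.85, adjusted p = 0.787), with ranges of 2.57 to 60.7 CPM in CD44+ libraries and 4.34 to 44.0 CPM in CD44- libraries. Tff3 averaged 22.1 ± 10.5 CPM in CD44+ libraries and 13.4 ± 11.8 CPM in CD44- libraries (0.72 ± 0.87, adjusted p = 0.791), with ranges of 13.0 to 42.7 CPM in CD44+ libraries and 0 to 33.2 CPM in CD44- libraries. The groups of all 3 genes overlapped over most of their range, and their means differed by less than the SD of either group.

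Pigr had 2 to 35 exon reads in CD44+ libraries, against 7 to 192 in CD44- libraries. Its means were 1.79 ± 1.30 CPM in CD44+ libraries and 10.7 ± 8.82 CPM in CD44- libraries, and the edgeR log2 fold change was -2.57 ± 0.83 (adjusted p = 0.160). Most Pigr reads of CD44+ libraries lay in introns: 434 intron reads stood beside 107 exon reads there, against 490 intron and 646 exon reads in CD44- libraries. With total gene reads in place of exon reads the log2 fold change was -1.06 (adjusted p = 0.483). Intron reads overall took 9.40% to 29.0% of gene reads in the CD44 libraries and 3.33% to 4.61% in the CD4+ libraries.

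The remaining 6 genes were present in some CD44 libraries at up to 600 exon reads and had no exon read in others. Reads of these genes are exon reads unless introns are named. Itln1 had 0 reads in 6 of 7 CD44+ libraries and 232 in replicate 8, against 1 to 589 reads in CD44- libraries. Ang4 had 0 reads in 6 of 7 CD44+ libraries and 105 in replicate 2, against 0 reads in 4 of 7 CD44- libraries and 22 to 121 in the others. Lypd8 had 1 read in a single CD44+ library, against 127 and 160 reads in 2 CD44- libraries. Such values do not give a usable group mean, and no fold is stated for these 3 genes.

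Reg3b had 0 reads in 4 of 7 CD44+ libraries, against 1 to 338 reads in CD44- libraries (log2 fold change -1.43 ± 1.38, edgeR adjusted p = 0.729, and -3.01 without CD44+ replicate 4). Reg3g had 0 reads in 3 CD44+ libraries and in 1 CD44- library (-0.56 ± 1.37, adjusted p = 0.902), and Zg16 in 4 CD44+ libraries and 1 CD44- library (-0.21 ± 1.54, adjusted p = 0.969). Zg16 also had 518 intron reads beside 838 exon reads over the CD44+ libraries. In CD44+ replicate 2 it had 368 intron reads and 0 exon reads. A library with 0 exon reads allows up to 3 reads by counting error. Relative to the exon total without scaling, that is at most 0.418 CPM in the CD44+ libraries. The limit covers counting error only. Of 78 genes of all the fixed lists that were tested in this comparison, edgeR called 3, each higher in CD44+ libraries: the plasma cell genes Jchain (5020 ± 1420 CPM in CD44+ libraries and 1003 ± 937 CPM in CD44- libraries) and Mzb1, and the myeloid adaptor Tyrobp.

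**Figure D5:**
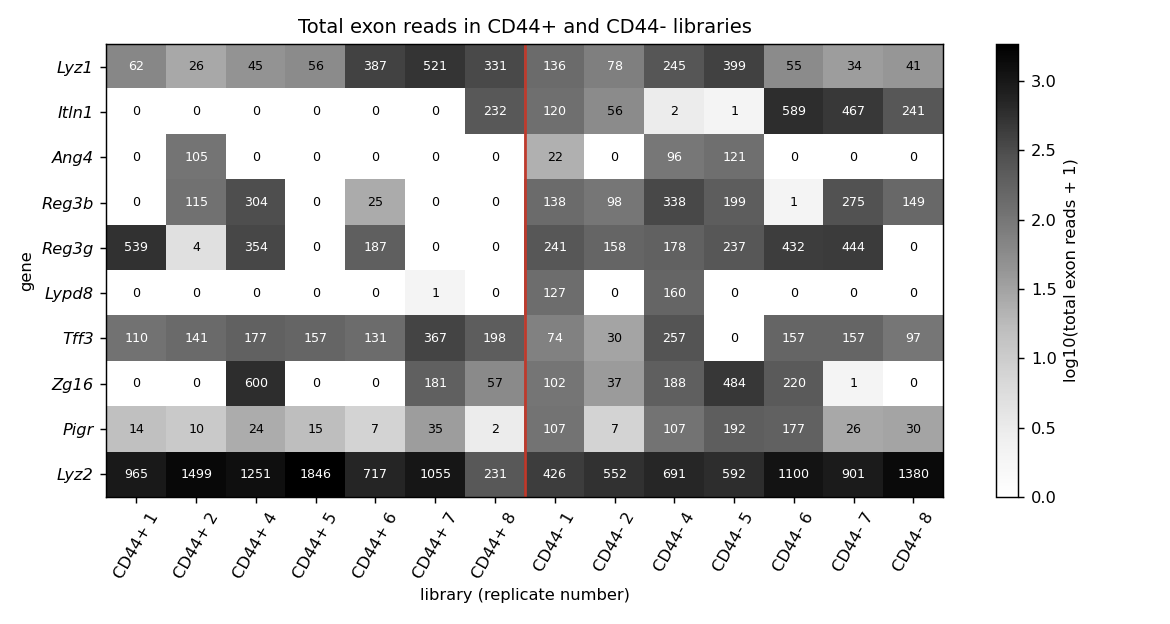
Total exon reads of each gene (rows) in the 7 CD44+ (left of the red line) and 7 CD44- libraries (columns), with the grey scale as log10(reads + 1). Lyz1, Lyz2 and Pigr have reads in all 14 libraries, while Itln1, Ang4 and Lypd8 have 0 in 6 of 7 CD44+ libraries each.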

How the data were processed

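Total exon reads per gene were read from the deposited tables, in which the authors give whole-number read counts per library, per the file headers. Gene coordinates are those of the tables, on GRCm38 per the submitters' processing notes. Which aligner and counter were used, and whether counting used strand, is not given in the sources used here. No other gene of the tables overlapped 1 of the 10 genes. The genes, gene lists and tests were chosen with earlier results of these data known.

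The diet and CD44 comparisons were fitted separately in R 4.3.3 with edgeR 4.0.16: filterByExpr, TMM scaling, and the robust quasi-likelihood test, two-sided, with Benjamini-Hochberg adjustment over all genes tested and an adjusted p under 0.05. Fold changes are elemental over conventional and CD44+ over CD44-. The SE was taken as the fitted change over the root of its F statistic. Log2 CPM used a prior count of 2. Genes named are the 10, the 3 genes nearest to each by correlation, up to 4 called genes per list with the largest change, and defining cell markers; Reg1, Reg3a, Reg4, Il22 and Nlrp6 were added after their values were seen. The lists named are 14, among them Paneth, goblet, enterocyte, M cell, macrophage, neutrophil, B, plasma and T cell markers. Alternatives used DESeq2 1.42.0 and limma 3.58.1. Tested on simulated counts, the procedure recovered most of the changes put in for the diet design and few for the CD44 design. The changed genes were drawn at random from the genes tested, so recovery for the 10 genes themselves was not measured. Sequences came from RefSeq (GRCm38.p6) and GENCODE M21 transcripts, aligned with Biopython 1.88 in Python 3.11.15. Precision follows the depth, which is at least 7180390 exon reads in every library but leaves some of the genes at 0 in the CD44 groups.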

Additional observations from a re-analysis of the deposited data

Results flagged for a closer look

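Of 40 groups of libraries, 1 per gene and group, 7 held a library far from the rest of its group by Dixon's test. Chance gives about 1 in 20 for normally spread values, which groups of mostly 0 reads are not. Where only 1 library of a group had any read, the flag was fixed in advance. The number flagged is therefore not set against chance. Lyz2 in elemental replicate 1, at 142 CPM, stood above the other 5 elemental libraries. Reg3g in conventional replicate 6, at 62.4 CPM, stood above the other 5 conventional libraries. In CD44+ libraries, replicate 4 was far above the others for Reg3b (36.4 CPM) and for Zg16 (71.9 CPM). Itln1 at 33.4 CPM in CD44+ replicate 8, Ang4 at 10.4 CPM in CD44+ replicate 2 and Lypd8 at 0.116 CPM in CD44+ replicate 7 were each the only CD44+ library with an exon read of the gene, the last with 1 read.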

How the results depend on the processing

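Of 220 fold changes of the 10 genes in the diet comparison under alternatives, 201 kept direction and call, and 0 changed direction. In the CD44 comparison 153 of 161 kept both and 7 changed direction. Called genes by diet were 2081, against 4095 with limma-voom, 347 against a minimum fold of 1.5 (77.2% of them higher, against 55.6%), 3379 without conventional replicate 6 and elemental replicate 1 together, and 1299 to 3865 without single libraries. The CD44 count was 64, against 101 with total gene reads, 401 with DESeq2, 30 against the minimum fold, 211 with edgeR's exact test and 36 to 87 without single libraries.

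In the diet comparison, limma-voom did not call Lyz1 (2.67), Itln1 (3.75) or Ang4 (3.80), and the minimum fold did not call Lyz1 (3.40, adjusted p = 0.0506), Ang4 (3.75, 0.0648) or Lyz2 (0.95, 0.187). Lypd8 passed with DESeq2 (1.90), limma-voom (2.43), the exact test (1.90) and without both named libraries (2.43), and ran from 1.67 to 2.43 without single libraries. Pigr passed with limma-voom (1.63), the exact test (1.28) and without both named libraries (1.80), and ran from 1.08 to 1.68. Without single libraries Lyz1 ran from 2.78 to 3.64, Itln1 from 4.05 to 4.72, Ang4 from 3.42 to 4.00 and Lyz2 from 0.74 to 1.06. In the CD44 comparison Pigr passed with DESeq2 (-2.58), and Zg16 turned to 0.12 with total gene reads and ran from -1.78 to 0.44 without single libraries. Reg3b ran from -3.01 to -1.10 and Reg3g from -1.31 to -0.27. The causes were not tested.

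Same-numbered libraries were not paired in the main fits. Correlations of their deviations ran from -0.14 to 0.27 by diet and from -0.04 to 0.12 by CD44. The labels do not tie the numbers to animals or days. Both CD44 groups carry the numbers 1, 2 and 4 to 8, so matched sorts are possible. The CD44+ and CD44- libraries of replicate 2 were each other's best match. With the replicate number as a block the counts were 2033 and 37; Lyz1 (2.63), Itln1 (3.57) and Ang4 (3.12) were not called, with adjusted p of 0.137, 0.125 and 0.185, and Pigr was called (1.55, 0.0153). Reads of Itln1, Ang4 and Lypd8 limit the CD44 comparison.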
